A study of Mus musculus with 60 samples.

Results

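The 29 genes of cholesterol supply described here were followed in primary mouse hepatocytes. They comprise 20 enzymes of cholesterol synthesis and 9 genes that regulate this synthesis or move cholesterol into and within the cell. The genes were listed by name, and each was read from whichever of its annotated probe sets had the highest mean signal. Of the 29, 28 have such a probe set, and all 28 lay above the 40th percentile of the array on each of the 60 arrays. Acat2 has no probe set of its own name here and no value. The 28 genes are part of 14513 genes tested, out of 18194 with a probe set. Hepatocytes came from male C57BL/6N mice of 8 to 12 weeks, from a single animal or a pool of up to 3. After plating on collagen they were kept in serum-free medium with dexamethasone for 24 h, which all groups share, controls included. Cells then received 40 ng/ml recombinant mouse hepatocyte growth factor (HGF), 40 ng/ml recombinant human interleukin 6 (IL-6), both, or nothing. RNA was taken at 0 h (4 arrays, unstimulated) and, with 2 arrays per condition and hour, at 0.5, 2 and 4 h and then at 8, 16, 24 and 32 h. HGF drives hepatocytes to grow and divide, and IL-6 is the main trigger of their acute phase response. The comparisons ask how each cytokine, and their combination, alters expression over time.

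Cholesterol is built from acetyl-CoA, first through mevalonate to the isoprenoid farnesyl diphosphate, then through squalene and lanosterol to the finished sterol. The transcription factor SREBP-2, encoded by Srebf2, turns on nearly all of these enzymes together. It is held in the endoplasmic reticulum by Scap and the Insig proteins when sterol is plentiful and is released for cleavage when sterol is scarce. The liver is a main site of this synthesis, and also takes up cholesterol from lipoproteins through surface receptors and frees it from lysosomes through Npc1 and Npc2.

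The sequences just before the start sites show what the promoters of these genes share. In 300-base windows around annotated starts (250 bases before to 50 after, RefSeq, build GRCm38.p6), 23 of the 29 genes had a window: 17 enzymes (with Acat2) and 6 regulators or uptake genes. Fdps, Fdft1, Sqle, Stard4, Npc1 and Scarb1 had none. The NF-Y box CCAAT, searched on both strands, occurred in 16 of the 17 enzymes (94.1%), against 42.3% of 11639 tested genes with a window and 41.1% of all 27025 genes with one. It was also found in 5 of the 6 regulators and uptake genes. The GC box GGGCGG, which binds Sp1-type factors, occurred in 15 of the 17 enzymes, against 63.2% of the tested genes. It was also found in 6 of the 6 regulators and uptake genes. A sterol response element of the form TCACNCCAC was found in 1 enzyme, Hmgcs1, against 1.46% of the tested genes. Other forms of the element and sites outside the windows were not searched, so a gene without a match may still hold one. A match is a run of letters and not a measured binding site, and genes with several annotated starts had more than 1 chance to match. The 5 upstream stretches below, of 250 bases each and in the direction of transcription, are shown because they belong to the gene with the sterol element (Hmgcs1), to the enzyme with one of the steepest falls in culture (Idi1), to the enzyme with the largest response to HGF (Msmo1), to a regulator that peaked at 2 h (Insig1) and to an enzyme that rose in culture (Ggps1). Capitals mark CCAAT or its reverse complement ATTGG and, in Hmgcs1, the sterol element.
Hmgcs1 (chr13:119690101-119690350, plus strand): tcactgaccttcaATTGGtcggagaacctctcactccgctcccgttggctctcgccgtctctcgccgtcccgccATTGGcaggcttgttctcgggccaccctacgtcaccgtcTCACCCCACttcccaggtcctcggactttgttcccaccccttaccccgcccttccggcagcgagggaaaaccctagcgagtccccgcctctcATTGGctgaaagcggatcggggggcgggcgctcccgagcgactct
Idi1 (chr13:8885356-8885605, plus strand): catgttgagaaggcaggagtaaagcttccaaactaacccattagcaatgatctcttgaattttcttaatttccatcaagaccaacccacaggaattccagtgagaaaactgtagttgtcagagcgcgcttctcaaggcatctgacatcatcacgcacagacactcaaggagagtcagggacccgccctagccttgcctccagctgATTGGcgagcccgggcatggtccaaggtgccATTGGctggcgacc
Msmo1 (chr8:64733579-64733828, minus strand): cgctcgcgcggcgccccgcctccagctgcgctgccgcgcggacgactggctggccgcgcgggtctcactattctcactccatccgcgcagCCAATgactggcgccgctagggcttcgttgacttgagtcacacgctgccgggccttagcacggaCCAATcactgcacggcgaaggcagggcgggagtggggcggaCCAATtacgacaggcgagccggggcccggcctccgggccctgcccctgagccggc
Insig1 (chr5:28071162-28071411, plus strand): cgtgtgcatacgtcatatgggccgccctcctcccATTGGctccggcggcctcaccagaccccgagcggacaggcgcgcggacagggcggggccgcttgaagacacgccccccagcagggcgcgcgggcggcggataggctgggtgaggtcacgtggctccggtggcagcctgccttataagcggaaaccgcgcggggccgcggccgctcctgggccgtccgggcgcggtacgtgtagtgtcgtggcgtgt
Ggps1 (chr13:14063489-14063738, minus strand): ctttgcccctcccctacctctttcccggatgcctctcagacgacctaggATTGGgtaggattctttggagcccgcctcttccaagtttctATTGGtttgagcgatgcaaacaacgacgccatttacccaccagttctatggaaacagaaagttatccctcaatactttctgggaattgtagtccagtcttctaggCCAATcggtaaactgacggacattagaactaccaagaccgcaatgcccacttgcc
Ggps1, whose level rose in culture, carries 3 CCAAT boxes, as does Msmo1, whose level fell.

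Of 8 hepatocyte markers 7 have a probe set, and all 7 were above the filter. Their summed level (log2 of the summed intensities) ranged over the arrays from 14.83 to 16.1, that of Kupffer cell markers from 8.41 to 9.7, of endothelial markers from 7.99 to 9.27, of stellate cell markers from 7.58 to 8.6, of cholangiocyte markers from 8.15 to 10.07 and of lymphocyte markers from 6.34 to 6.83. Levels of different probe sets are not comparable, so these ranges do not rank the cell types. Timd4, Lrat, Colec11, Cftr, Cd3g, Nkg7 and Ptprc were below the 40th percentile on every array. The dap controls set the 10 unstimulated arrays of 0 to 4 h apart, with a dap 3′ minus 5′ log2 difference of 1.22 to 1.48 against 2.62 to 3.24 on 49 others and 3.72 on IL-6 24 h replicate 1. No label names a batch, and the 2 sets are called control classes here. Stimulated and unstimulated arrays of 0.5 to 4 h therefore differ in control class as well as in treatment. Those of 8 to 32 h had dap differences of 2.66 to 3.72 and 2.63 to 2.89, with IL-6 24 h replicate 1 at the upper end. For the cells' own RNA, that array had 3′ minus 5′ differences of 0.754 for Gapdh and 0.937 for Actb, against 0.16 and 0.594 on replicate 2. The Actb difference of unstimulated arrays went from 0.422 and 0.461 at 8 h to 0.714 and 0.723 at 32 h, so it differed within a control class too. The limma F-test over all 7 hours (0.5 to 32 h) called 24 of the 28 genes for HGF, beside 62.6% of all genes, 23 for IL-6 (55.1%) and 25 for the combination (68.0%). Values below come from the same test over 8 to 32 h unless stated. The hybridisation control bioB still differed there, at 8.04 to 8.31 on unstimulated and 5.21 to 6.98 on stimulated arrays, and its part in the results was not tested. Of the 28 pairs of arrays, the IL-6 pair of 16 h stood furthest apart over these genes: its median difference was 0.327 log2 units, against 0.137 in the next pair, and 18 of 19 enzymes were lower in replicate 1. Replicate 1 was also lower for 18 enzymes in the IL-6 pairs of 0.5 and 8 h and the combination pair of 16 h. In the other IL-6 pairs it was lower for 6 at 2 h, 10 at 4 h, 15 at 24 h and 11 at 32 h. In such bulk samples fewer cells of a type and less RNA per cell cannot be told apart. Whether arrays of 1 condition and hour derive from different mice is not given, so p-values measure only the spread between these arrays.

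The enzymes of cholesterol synthesis rose slightly in the first hours of unstimulated culture and then fell together. Their median stood 0.235 above 0 h on the log2 scale at 4 h, at -0.094 at 8 h, at -0.46 at 16 h and at -0.777 at 32 h, where 17 of 19 enzymes were lower. The median over all genes tested was -0.049 at 32 h. From 8 to 32 h, between arrays of 1 control class, 17 of 19 enzymes fell, 1 rose (Ggps1) and 1 did not pass (Lbr, -0.02), with a median of -0.636. Over all genes 28.0% fell and 31.9% rose in that contrast (limma, adjusted p under 0.05). The regulators and uptake genes were split: 6 of 9 fell, Npc1 and Npc2 rose, and Scarb1 did not pass (0.03). Their median in that contrast was -0.393. From 0 to 32 h, between control classes, it was -0.666, beside -0.777 for the enzymes. Without Ggps1 and Lbr, enzymes that also serve protein prenylation and the nuclear lamina, the median of the enzymes from 8 to 32 h was -1.141. Both lay above the median of -0.636, so leaving them out could only lower it.

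**Figure D1:**
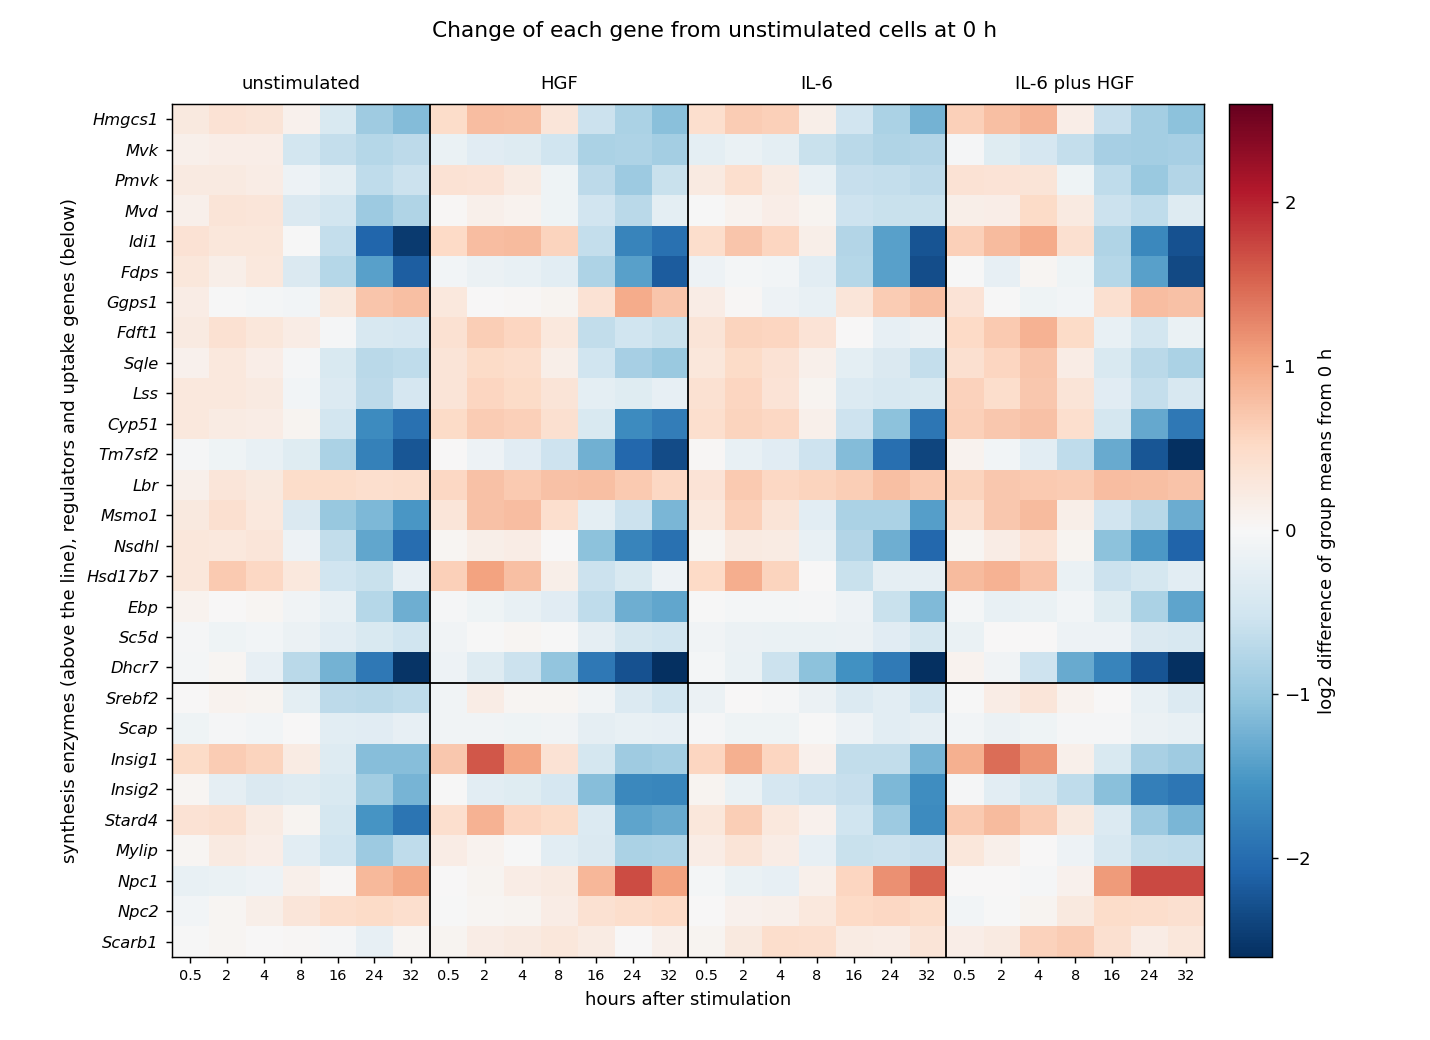
Colours give the log2 difference of each group mean from unstimulated cells at 0 h, with genes in rows and hours in columns, for the 4 conditions. Blue fills most enzyme rows from 16 h in all 4 conditions, while Ggps1, Lbr, Npc1 and Npc2 turn red.

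Within the mevalonate steps, the falls differed in size. Idi1, which isomerises isopentenyl diphosphate, lay at 10.84, 10.79, 10.69 and 10.79 on the 4 arrays of 0 h and at 8.30 and 8.30 at 32 h, a difference of -2.47 (SE 0.10, adjusted p = 2.74e-25). Fdps, which makes farnesyl diphosphate, fell by 2.14, and Hmgcs1, which makes hydroxymethylglutaryl-CoA, fell by 1.11. The kinases Mvk and Pmvk and the decarboxylase Mvd had smaller differences at 32 h of -0.68, -0.57 and -0.78. Ggps1, which makes geranylgeranyl diphosphate for protein prenylation, went the other way: from 6.58, 6.46, 6.45 and 6.38 at 0 h to 7.21 and 7.28 at 32 h (0.78, SE 0.09, adjusted p = 5.33e-11). All 4 of its probe sets rose, by 0.62 to 1.27. The 0 h and 32 h arrays differ in control class, but from 8 to 32 h, within a class, the differences were -2.46 for Idi1, -1.77 for Fdps and 0.85 for Ggps1.

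Among the squalene and sterol steps the falls ranged widely. Dhcr7, the last reductase of the route, lay at 9.47 to 9.61 at 0 h and at 7.19 and 6.80 at 32 h (fell by 2.55, SE 0.08, adjusted p = 1.56e-30). Also lower were Tm7sf2, a sterol C14 reductase (-2.23), the dehydrogenase Nsdhl (-1.98), the lanosterol demethylase Cyp51 (-1.95), the C4 methyl oxidase Msmo1 (-1.52) and the isomerase Ebp (-1.27). Fdft1, which makes squalene, and the epoxidase and cyclase that act on it, Sqle and Lss, had differences at 32 h of -0.43, -0.65 and -0.43. Hsd17b7 was 0.69 higher at 2 h and differed by -0.22 at 32 h, and Sc5d fell by 0.51. Lbr, another C14 reductase that also anchors chromatin at the nuclear envelope, stood 0.47 above 0 h at 16 h. Tm7sf2, which catalyses the same step, fell. These differences of 16 and 32 h from 0 h are between control classes. From 8 to 32 h, within a class, Lbr differed by -0.02 and Tm7sf2 by -1.92, so a rise of Lbr is not seen there. In all, 28 of 28 genes passed the F-test of the 7 unstimulated hours against 0 h, beside 75.0% of all genes. At the largest difference 23 were lower (34.6% of all genes) and 5 higher (40.4%), namely Ggps1, Lbr, Hsd17b7, Npc1 and Npc2.

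The stimuli left this decline in place. From 8 to 32 h 17 of 19 enzymes fell under HGF (median -1.049), 16 under IL-6 (median -0.736) and 16 under the combination (median -1.024), against 25.5%, 25.7% and 28.5% of all genes. The test of the difference in this change from unstimulated cells passed for 2 enzymes under HGF, 0 under IL-6 and 5 under the combination. Under HGF these were Sqle (-0.50) and Msmo1 (-0.49), and under the combination Fdps (-0.46), Sqle (-0.40), Lss (-0.38), Msmo1 (-0.30) and, upward, Hsd17b7 (0.40). An unadjusted p under 0.05 was found for 4 of 19 enzymes under HGF, 1 under IL-6 and 7 under the combination, beside 3894, 3220 and 4001 of 14513 genes. Over all genes this test called 6.50% upward and 9.14% downward for HGF, 5.04% and 5.07% for IL-6, and 9.08% and 7.81% for the combination. The plot of list medians by array shows the shared course.

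**Figure D2:**
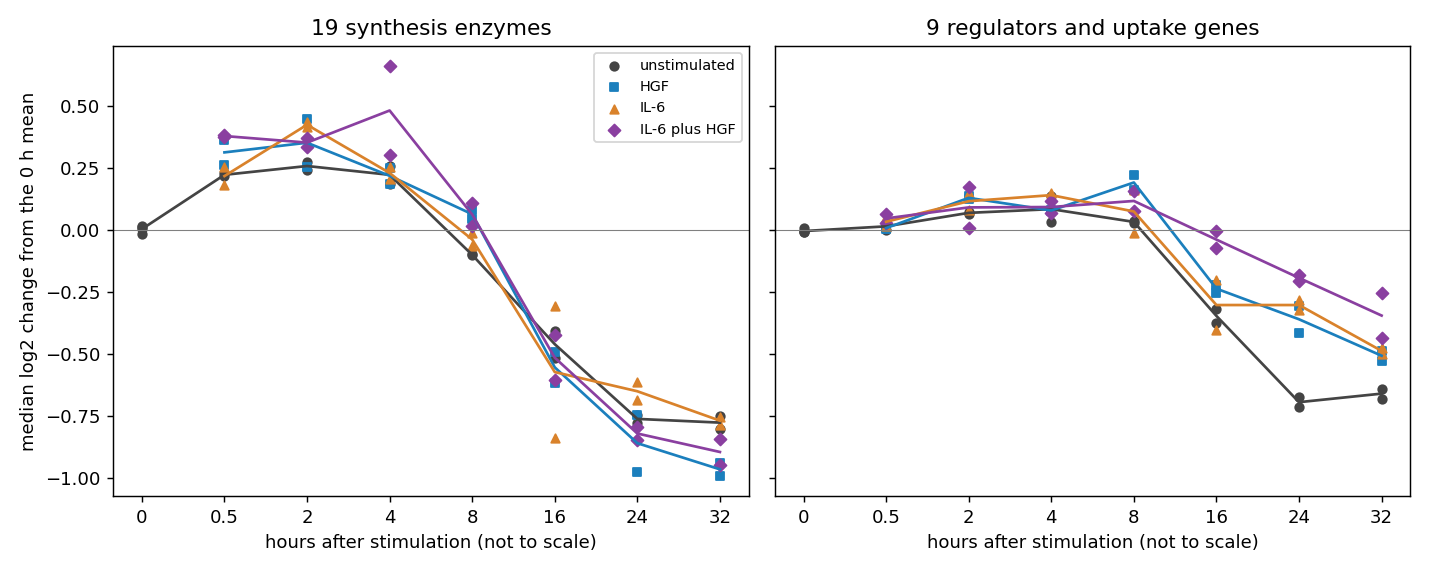
Each point is 1 array, its height the median log2 change from the 0 h mean over 19 enzymes (left) or 9 regulators and uptake genes (right), and lines join group means over hours. The enzymes reach -0.75 to -0.992 at 32 h in all conditions, the IL-6 arrays of 16 h lie at -0.841 and -0.306, and at 24 h all stimulated arrays of the right panel lie above the unstimulated ones.

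With HGF the enzymes moved in both directions, as all genes did. Over 8 to 32 h 13 of 19 passed the F-test, 6 upward and 7 downward at their largest difference, and of the 9 regulators and uptake genes 5 passed. Together these are 18 of 28 genes, beside 55.1% of all genes, with 27.2% up and 27.9% down. The upward group included Msmo1, Idi1, Lss, Lbr, Hmgcs1 and Mvd, and the downward group Dhcr7, Fdft1, Ebp, Tm7sf2, Nsdhl, Pmvk and Sqle. The largest differences of Msmo1, Idi1, Lss and Hmgcs1 were at 8 h, and those of Lbr and Mvd at 16 and 32 h. Those of the downward group were at 16, 24 or 32 h, so the 2 directions were largely read at different hours. Pmvk and Idi1, which act close to each other in the mevalonate branch, had opposite directions at different hours. Pmvk differed by -0.42 at 16 h and Idi1 by 0.58 at 8 h.

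Msmo1 had the largest response of an enzyme. At 8 h it lay at 10.32 and 10.33 without stimulus, at 11.18 and 11.10 with HGF, at 10.29 and 10.54 with IL-6 and at 10.87 and 10.83 with both. Both HGF arrays and both combination arrays were above all others of that hour, and the combination lay between HGF and unstimulated cells. HGF exceeded unstimulated cells by 0.81 (SE 0.07, limma F-test over 8 to 32 h, adjusted p = 1.49e-17) and was still 0.73 higher at 16 h and 0.60 higher at 24 h. IL-6 differed from HGF by -0.72 at 8 h (SE 0.07, adjusted p = 1.1e-10). The combination differed from the sum of the single effects by -0.38 at 8 h and -0.51 at 24 h (interaction over 8 to 32 h, adjusted p = 1.2e-05).

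Idi1 rose with HGF too, to 11.37 and 11.32 at 8 h against 10.82 and 10.70 in unstimulated cells (0.58, SE 0.12). At 16 h the conditions overlapped, from 9.61 to 10.42, and the ends of this range were the 2 IL-6 arrays. At 24 h IL-6 arrays lay at 9.31 and 9.41 and unstimulated ones at 8.69 and 8.73 (0.65, SE 0.12, F-test over 8 to 32 h, adjusted p = 9.78e-05). With 24 h left out the IL-6 call was lost (0.24 at 32 h, adjusted p = 0.15). The other Idi1 probe set was 0.44 higher with HGF at 16 h, where the one used was at 0.00.

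Dhcr7 fell below unstimulated cells in every stimulated condition. At 16 h it lay at 8.39 and 8.24 without stimulus, 7.60 and 7.77 with HGF, 7.84 and 8.09 with IL-6, and 7.75 and 7.92 with both, so that no stimulated array reached the unstimulated ones. HGF differed by -0.63 at 16 h (SE 0.09, F-test over 8 to 32 h, adjusted p = 8.06e-09), the combination by -0.63 at 8 h (adjusted p = 1.59e-10) and IL-6 by -0.37 at 8 h (adjusted p = 1.88e-05). By 32 h HGF arrays, at 6.92 and 6.94, lay between the unstimulated ones at 7.19 and 6.80.

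Fdft1, the first enzyme committed to sterols, parted the cytokines. At 16 h HGF arrays lay at 9.57 and 9.54, below all others: unstimulated arrays lay at 10.20 and 10.10, IL-6 arrays at 10.04 and 10.34 and combination arrays at 9.91 and 10.08. HGF differed from unstimulated cells by -0.59 (SE 0.07, F-test over 8 to 32 h, adjusted p = 7.78e-08), and IL-6 exceeded HGF by 0.64 (SE 0.07, adjusted p = 1.93e-09). At 32 h IL-6, at 9.99 and 10.09, exceeded unstimulated arrays at 9.78 and 9.73 (0.28, SE 0.07). The second probe set gave -0.61 for HGF at 16 h, while the remaining sets, at low signal, gave 0.00 and 0.12. Ebp behaved alike, with a difference of -0.52 for HGF at 24 h (SE 0.06) and IL-6 above HGF by 0.69 (SE 0.06), and Sqle was 0.48 higher with IL-6 than with HGF at 24 h.

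Cyp51 had its largest difference of 8 to 32 h with IL-6 at 24 h. It lay at 8.94 and 9.11 with IL-6 at 24 h, above 8.47 and 8.44 without stimulus and 8.56 and 8.35 with HGF (0.57 over unstimulated cells, SE 0.11, F-test over 8 to 32 h, adjusted p = 0.000594), but with 24 h left out the adjusted p was 0.885. Mvd at 8 h lay at 6.11 and 6.20 without stimulus, at 6.33 and 6.46 with HGF, at 6.52 and 6.65 with IL-6 and at 6.65 and 6.84 with both (0.59 for the combination, SE 0.15, adjusted p = 0.000343). Its 2 HGF arrays of 24 h, at 6.18 and 5.46, were far apart. Among the other enzymes Tm7sf2 differed most from unstimulated cells with the combination at 16 h (-0.49, SE 0.08). Pmvk and Nsdhl differed by -0.42 and -0.41 with HGF at 16 h, and Lbr was 0.36 higher with the combination at 24 h. Mvk, Ggps1 and Sc5d did not pass for HGF over 8 to 32 h, and neither did Fdps, Hsd17b7 and Cyp51.

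**Figure D3:**
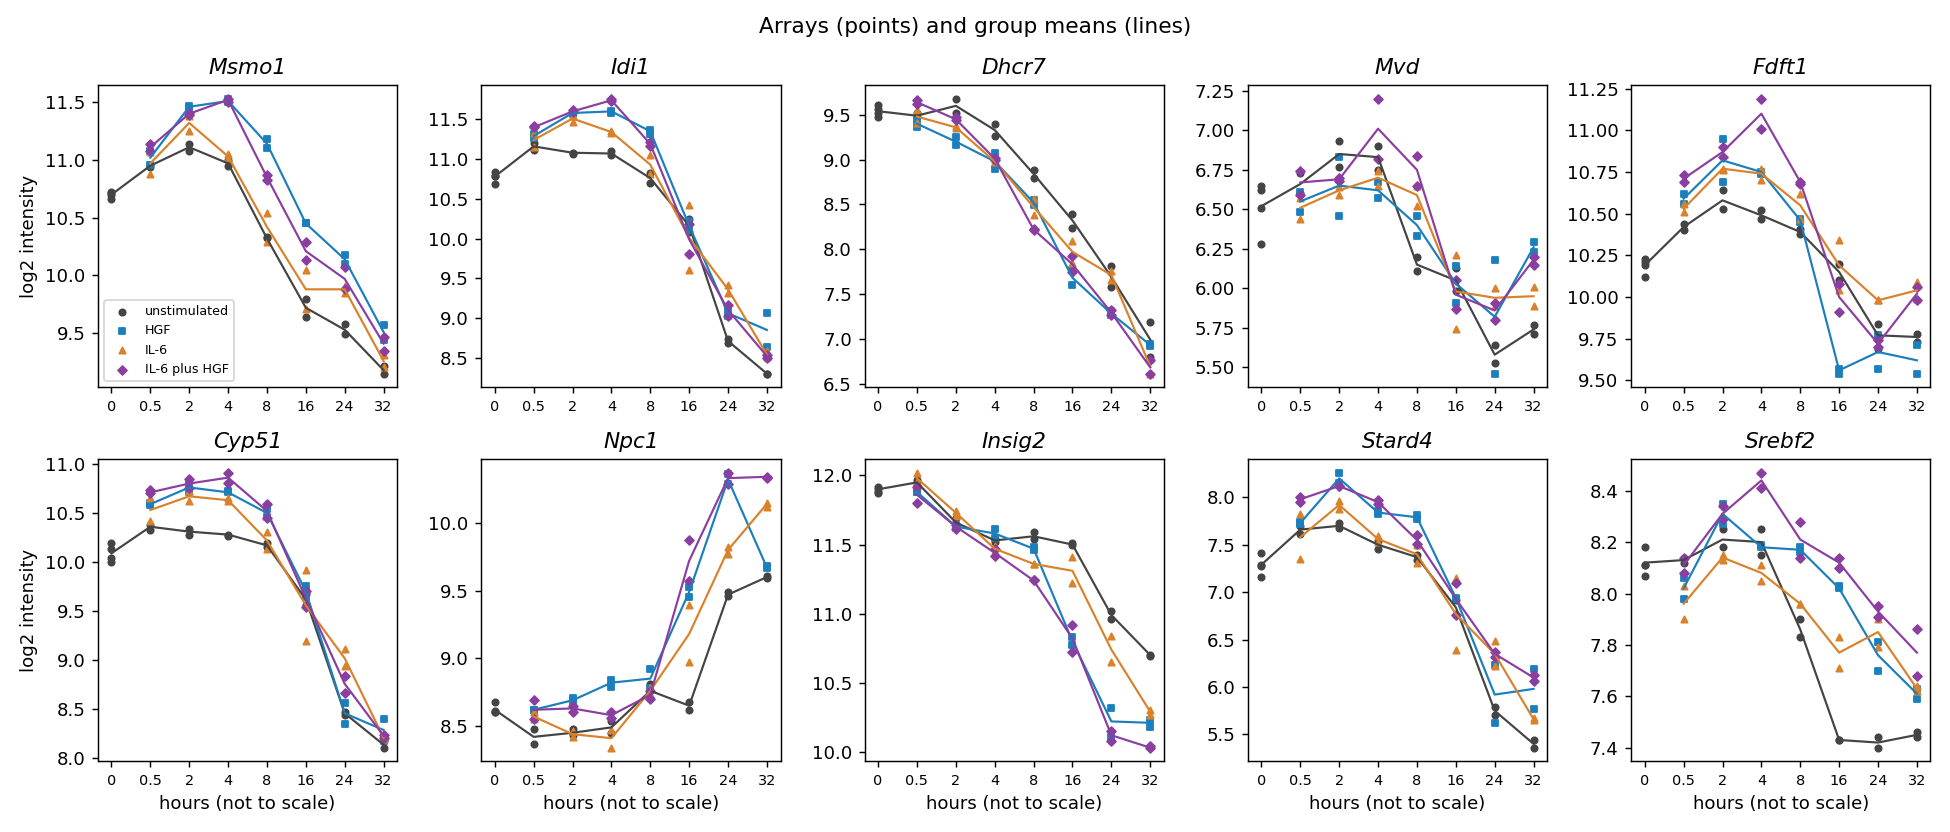
Log2 intensity over hours for 6 enzymes and 4 regulators or uptake genes, with points for arrays and lines for group means of the 4 conditions. Msmo1 lies highest with HGF from 8 to 24 h, Fdft1 drops with HGF at 16 h, Npc1 climbs in all conditions and Insig2 falls furthest with HGF and the combination.

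Differences of the enzymes between IL-6 and unstimulated cells were mostly found at 24 h. Over 8 to 32 h 13 of 19 enzymes passed, 10 up and 3 down, and 6 of 9 regulators and uptake genes, together 19 of 28 genes beside 42.0% of all genes (18.7% up, 23.3% down). At 24 h alone 9 enzymes were higher and 1 lower (median 0.169), where 12.6% of all genes were higher and 12.2% lower. At 8 h 1 was higher and 1 lower (median 0.051), beside 6.75% and 10.9% of all genes. IL-6 24 h replicate 1 is the array that stood apart in its controls. Its median change of the enzymes from 0 h was -0.688 and that of replicate 2 was -0.614, both above the unstimulated arrays of that hour at -0.78 and -0.745. With 24 h left out 10 of 28 genes passed, 6 up and 4 down, beside 37.8% of all genes. These were Mvd, Fdft1, Lbr, Srebf2, Npc1 and Scarb1 upward, and Pmvk, Tm7sf2, Dhcr7 and Insig2 downward.

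With both cytokines 15 of 19 enzymes passed over 8 to 32 h (9 up, 6 down) and 6 of 9 regulators and uptake genes (5 up, 1 down), beside 57.2% of all genes (28.5% up, 28.7% down). IL-6 and HGF differed from each other in 19 of 28 genes, beside 50.1% of all genes. The combination differed from HGF in 14, beside 37.0%, and from IL-6 in 14, beside 34.6%. Leaving out replicate 1 of the combination at 32 h lowered the count against HGF to 9. The interaction over 8 to 32 h passed for 10 genes, beside 19.7% of all genes, and for 6 with 24 h left out, beside 16.2%. Over all 7 hours IL-6 and HGF differed in 19 genes (51.2% of all genes), the combination and HGF in 14 (41.6%), the combination and IL-6 in 21 (44.1%), and the interaction passed for 14 (33.6%).

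**Figure D4:**
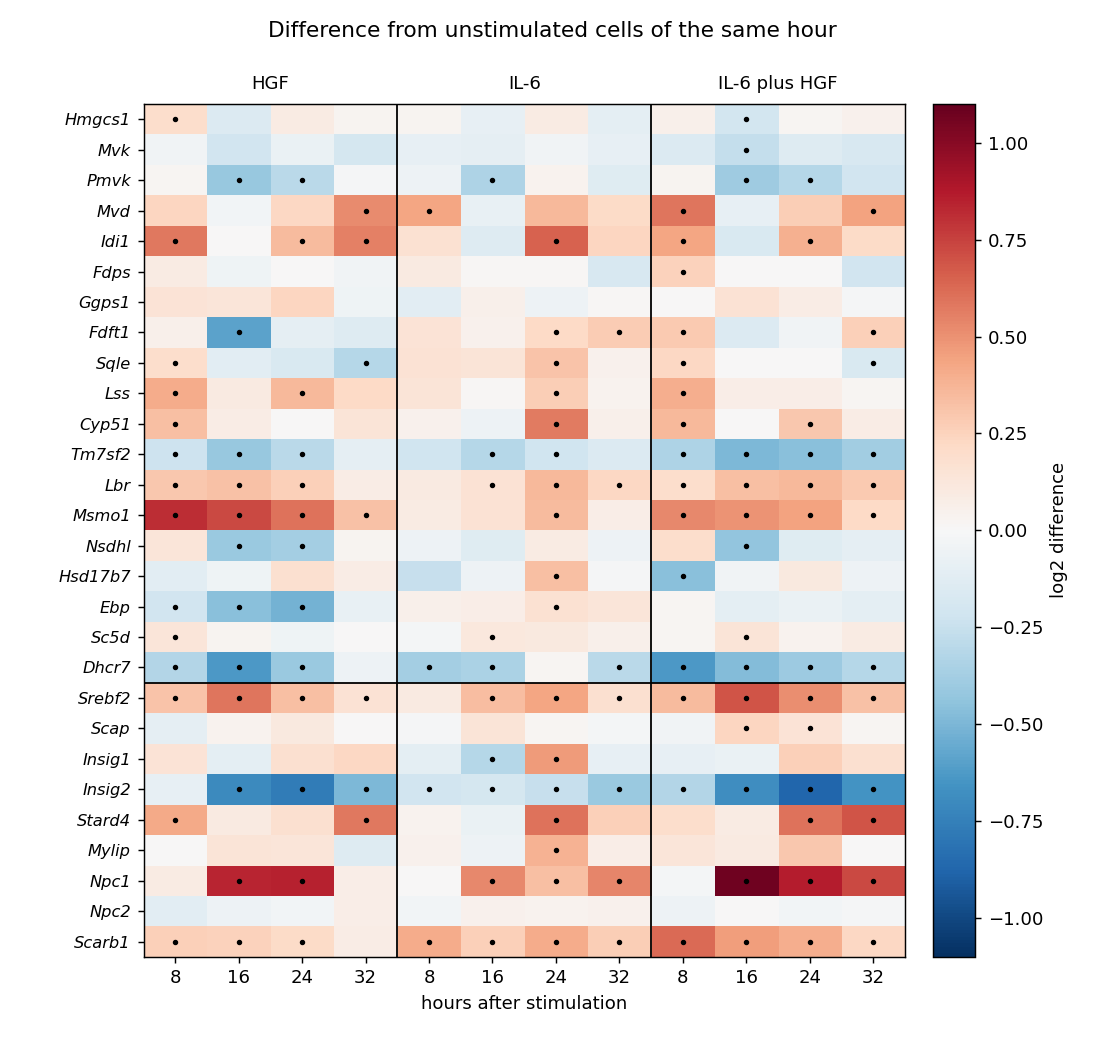
Colours give the log2 difference of each stimulated group from unstimulated cells of the same hour at 8 to 32 h, and a dot marks an adjusted p under 0.05 at that hour. Npc1, Srebf2 and Scarb1 are red and Insig2 and Tm7sf2 blue in most columns, whereas most enzymes change colour between columns.

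Among the regulators, Srebf2 and Insig2 passed in all 3 comparisons with unstimulated cells. Srebf2, which encodes SREBP-2, lay at 7.43 and 7.43 at 16 h without stimulus, at 8.02 and 8.03 with HGF, at 7.71 and 7.83 with IL-6 and at 8.10 and 8.14 with both. No stimulated array overlapped the unstimulated ones. The differences were 0.59 for HGF (SE 0.06), 0.34 for IL-6 and 0.69 for the combination (SE 0.06, F-test over 8 to 32 h, adjusted p = 1.5e-16). The second Srebf2 probe set differed by only 0.05 with HGF at 16 h, so this difference rests on 1 of 2 probe sets. Scap, the escort of SREBP-2, moved little, with 0.24 for the combination at 16 h as its largest difference.

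The retention factors Insig1 and Insig2 took different courses. Insig2 lay at 10.96 and 11.02 at 24 h without stimulus, at 10.11 and 10.32 with HGF, at 10.65 and 10.84 with IL-6 and at 10.15 and 10.08 with both. All stimulated arrays were lower, those with HGF the furthest. HGF differed by -0.77 (SE 0.06, F-test over 8 to 32 h, adjusted p = 2.24e-20), the combination by -0.87 (adjusted p = 6.09e-23) and IL-6 by -0.25, reaching -0.41 at 32 h (adjusted p = 1.2e-09). All 3 Insig2 probe sets gave lower values with HGF at 16 h, by -0.66 to -0.81. Insig1, itself a target of SREBP-2, peaked at 2 h: HGF arrays lay at 10.18 and 10.26, combination arrays at 10.06 and 10.05, IL-6 arrays at 9.63 and 9.42 and unstimulated arrays at 9.25 and 9.26. HGF exceeded IL-6, an array group of the same control class, by 0.69 at 2 h (SE 0.11, limma, adjusted p = 6.17e-06), and the combination exceeded IL-6 by 0.53. HGF exceeded unstimulated cells by 0.97 at 2 h, a contrast between control classes. For this gene the change of unstimulated cells from 4 to 8 h (-0.36) minus the mean change of stimulated cells (-0.70) was 0.34. That value holds the step between classes together with any change of the stimulus effects from 4 to 8 h, so it does not measure the step alone. Over 8 to 32 h Insig1 passed for IL-6 (0.47 at 24 h) and not for HGF (adjusted p = 0.0911). With 24 h left out the IL-6 call was lost (adjusted p = 0.0675) and the largest difference was -0.31, at 16 h.

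Npc1, which exports cholesterol from lysosomes, rose in culture and rose further with every stimulus. At 16 h it lay at 8.68 and 8.62 without stimulus, at 9.53 and 9.45 with HGF, at 9.39 and 8.97 with IL-6 and at 9.87 and 9.57 with both. At 32 h unstimulated arrays had reached 9.59 and 9.61 and HGF arrays 9.67 and 9.68, whereas IL-6 arrays lay at 10.12 and 10.15 and combination arrays at 10.33 and 10.34. The combination exceeded unstimulated cells by 1.07 at 16 h (SE 0.08, F-test over 8 to 32 h, adjusted p = 1.27e-20), or by 0.92 and 1.21 when 1 of the arrays was left out. HGF was 0.85 higher at 24 h (SE 0.08) but 0.07 at 32 h (adjusted p = 0.552), where IL-6 was still 0.54 higher. Its lysosomal partner Npc2, by contrast, passed in none of the 3 comparisons with unstimulated cells, with differences of at most 0.12 in size at 8 to 32 h.

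Stard4, which carries sterol between membranes, followed the enzymes in culture. The probe set used, which fell the furthest of its sets, went from 7.16 to 7.41 at 0 h to 5.44 and 5.36 at 32 h. At 32 h HGF arrays lay at 6.19 and 5.77, IL-6 arrays at 5.65 and 5.67 and combination arrays at 6.13 and 6.06, all above the unstimulated ones. The combination differed by 0.69 (SE 0.15, F-test over 8 to 32 h, adjusted p = 2.42e-05) and HGF by 0.58. IL-6 differed by 0.60 at 24 h, a call lost without replicate 2 of either the IL-6 or the unstimulated arrays of 24 h (adjusted p up to 0.11) and with 24 h left out (0.505). The probe set used for Scarb1, the receptor for high-density lipoprotein, differed from 0 h by at most 0.21 in unstimulated culture. The third Scarb1 set differed by -0.38 at 32 h. With the set used, Scarb1 was higher by 0.62 with the combination (SE 0.08), 0.41 with IL-6 and 0.26 with HGF at 8 h. Mylip, which marks lipoprotein receptors for degradation, did not pass over 8 to 32 h in these 3 comparisons.

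Set side by side with the enzymes, the regulators and uptake genes had higher median differences from unstimulated cells at 24 h, and the gap was smaller at 32 h in all 3 comparisons. At 24 h the regulator and uptake median was 0.175 with HGF, 0.383 with IL-6 and 0.301 with both, while that of the enzymes was -0.001, 0.169 and 0.021, and that of all genes 0.025, -0.003 and 0.008. At 32 h the medians were 0.072, 0.072 and 0.179 against 0.004, 0.041 and -0.013 for the enzymes. At 16 h the regulator and uptake medians, as change from 0 h, were -0.404 and -0.202 on the IL-6 arrays. The unstimulated arrays of that hour lay between, at -0.374 and -0.32, and the HGF and combination arrays lay above the unstimulated ones. The difference between the lists was not tested, and 24 h includes the IL-6 array that stood apart in its controls. These comparisons share their unstimulated arrays, and the 9 genes include opposite movers such as Npc1 and Insig2. Over the 29 group means, 17 of 19 enzymes correlated with the mean of the other enzymes at 0.80 to 0.98, against -0.89 for Ggps1 and -0.25 for Lbr. Insig1 (0.96) and Stard4 (0.97) ran with them, and Npc1 (-0.91) and Npc2 (-0.90) ran opposite. The genes outside the list most alike the mean enzyme course were Vil1 (r = 0.987), Sult2a8 (0.978), Slco1a1 (0.977), Cxcl9 (0.976), Cyp4a14 (0.975), Mug1, Rdh16f2 and Gm20319 (each 0.974). The means share time in culture, control class and hybridisation, so the correlations are given as a description. Hepatocyte markers declined as well: 6 of 7 were lower in unstimulated culture in the F-test over 8 to 32 h against 0 h. In the test over 0.5 to 32 h 34.6% of all genes were lower. The hours from 8 to 32 h differ from 0 h in control class too. Among the lower markers were Asgr1 (-4.53), Cps1 (-3.73) and Alb (-0.19) at 32 h. Over 8 to 32 h 5 of 7 were lower and 1 higher with HGF and with IL-6, and 6 were lower and 1 higher with the combination, where 27.9%, 23.3% and 28.7% of all genes were lower. With HGF 5 of 6 endothelial markers were lower and 3 of 4 tested cholangiocyte markers higher, beside 27.9% and 27.2% of all genes. The part of these markers in the values of the cholesterol genes was not tested.

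Other genes around the pathway changed in both directions. The counts for stimuli stand beside 27.2% up and 27.9% down over all genes for HGF, 18.7% and 23.3% for IL-6, and 28.5% and 28.7% for the combination. Of 6 measured genes of SREBP cleavage and sterol-regulated degradation all 6 rose in culture, in the F-test over 8 to 32 h against 0 h. The share of all genes that rose, 40.4%, is from the test over 0.5 to 32 h and so is not a matched one. With HGF 3 of the 6 rose and 3 fell. Erlin1, which helps to remove sterol-regulated proteins from the endoplasmic reticulum, was 0.60 higher with HGF at 16 h, and the protease Mbtps2 0.44 higher. Of 5 genes of acetyl-CoA supply and electron donors 3 fell with each stimulus, among them Acss2, which makes acetyl-CoA from acetate (-1.30 with the combination at 16 h). All 3 measured genes of esterification and hydrolysis fell with HGF and with the combination, led by the lysosomal lipase Lipa (-0.93, combination, 16 h). Of 5 efflux and oxysterol receptor genes 3 fell with HGF and 2 did not pass. Abca1, which exports cholesterol, was 1.04 higher with IL-6 at 16 h, and Abcg5, which secretes sterol into bile, differed by -1.29 with the combination at 16 h. Of 4 lipoprotein receptor genes 1 rose and 3 fell with HGF, and the riser was Vldlr (1.23 at 16 h, SE 0.12). Of 7 sterol transport genes 2 rose and 3 fell with HGF, Tmem97 by 0.57 upward at 32 h, and of 6 genes of the isoprenoid branches 3 rose and 1 fell with HGF. Nus1, which takes part in dolichol synthesis, was 0.36 higher with the combination at 8 h.

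Where a gene has several probe sets, they did not always move together. The other Sc5d sets, of lower signal, correlated with the one used at -0.44 and -0.22 over group means, and the third Lss set rose by 1.71 in culture while the one used fell by 0.43. All 4 detected Hmgcs1 sets correlated at 1.00 and had differences of -1.06 to -1.29 from 0 to 32 h, and those of Cyp51 correlated at 0.94 or more. The Insig2 sets differed by -0.87, -0.36 and -0.04 from 8 to 32 h in unstimulated culture. With HGF at 16 h the Scarb1 sets differed by 0.25, 0.09 and 0.11. The other Srebf2 set fell in culture like the one used (-0.71 and -0.67), and the second Lss set differed by -0.12. The direction given for Sc5d in culture therefore rests on 1 of its 3 probe sets, and the HGF difference of Srebf2 on 1 of 2.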

How the data were processed

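The deposited values are log2 intensities of 45101 probe sets on 60 arrays of the series matrix, with One-Cycle biotin labelling per the labels' protocols. The normalization behind them is named by no label or header here. Array medians lay between 4.877 and 4.9677. No pair of arrays held identical values. The series text speaks of triplicates, whereas the table used holds 2 arrays per group and 4 at 0 h. Probe sets were named through GEO's platform annotation: 34958 had 1 gene, 932 several and 9211 none. Genes above the 40th percentile on at least 2 arrays (14513) were fitted with limma 3.58.1 (R 4.3.3), with a mean for each of 29 groups, 31 residual degrees of freedom and eBayes with a trend. F-tests over hours and tests at single hours were adjusted by Benjamini-Hochberg over all genes (threshold 0.05). The direction of a call is that of the largest difference. The steps were tested on simulated data.

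Members and lists were chosen with earlier results of these data known. Array values are given for the 6 enzymes and 4 other members with the largest differences from unstimulated cells at 8 to 32 h whose arrays did not overlap. Ggps1 and Insig1 are shown by array too, chosen after their values were seen. Other members are named with the values that describe their group, up to 3 genes of each further list by adjusted p, and the 8 genes most correlated with the mean enzyme. Over all genes, same-numbered arrays did not deviate together (378 pairs of groups, correlations of -0.27 to 0.25), so the number was not used as a block. Alternatives were the normalization, filter, probe set rule, samples, variance model, block and each array left out. Leaving out 24 h for IL-6 and comparing 32 h with 8 h were chosen after seeing the data.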

Additional observations from a re-analysis of the deposited data

Results flagged for a closer look

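At 0 h, 1 of the 4 arrays stood apart for Sqle, with a gap of 0.843 of the range of the group, above Dixon's critical value, which chance exceeds in about 1 of 20 groups.

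The effect of HGF differed between cells with and without IL-6 (interaction, limma F-test, adjusted p) for 14 genes over 0.5 to 32 h. The enzymes were Hmgcs1 (0.0361), Mvk (0.00602), Idi1 (0.00242), Fdps (0.00207), Fdft1 (0.0363), Lss (0.00345), Lbr (1.08e-05), Msmo1 (1.86e-05), Ebp (0.00157) and Dhcr7 (0.000366). The regulators and uptake genes were Srebf2 (0.000233), Insig1 (0.024), Insig2 (0.0317) and Npc1 (0.021). In this contrast unstimulated arrays of 0.5 to 4 h carry the other control class. Over 8 to 32 h it passed for Idi1 (0.00239), Fdft1 (0.0232), Lss (0.00961), Lbr (0.0125), Msmo1 (1.2e-05), Ebp (0.000831), Dhcr7 (0.0431), Srebf2 (0.0302), Insig2 (0.0172) and Npc1 (0.0177).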

How the results depend on the processing

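With 24 h left out, the IL-6 count over 8 to 32 h went from 19 to 10 and the interaction from 10 to 6. Without Acat2, Ggps1 and Lbr the enzyme median was -1.112 instead of -0.777 from 0 to 32 h and -1.141 instead of -0.636 from 8 to 32 h. Ggps1 and Lbr lay above the median in both contrasts, so leaving them out could only lower it. The mean over probe sets turned Sc5d to -0.09 for HGF, -0.06 for IL-6 (over both ranges of hours), -0.08 and, over 8 to 32 h, -0.1 for the combination, and 0.11 in culture, and Scap to -0.05 for the combination against HGF over 8 to 32 h. Over the 28 genes described here, all comparisons and both ranges of hours, the mean over probe sets lost 46 calls and gained 18. The fit without the variance trend lost 26, and the fit of the compared conditions only, without the interaction, lost 23 and gained 14. With either, the count for the combination against IL-6 over 8 to 32 h went from 14 to 10. Without the trend the interaction over 0.5 to 32 h went from 14 to 10. The replicate block lost 5. With the replicate block the counts over 8 to 32 h were 18 for HGF, 19 for IL-6, 21 for the combination, 19 for IL-6 against HGF, 12 and 14 for the combination against HGF and IL-6, and 10 for the interaction. Leaving out each array in turn gave, over 0.5 to 32 h and then 8 to 32 h, 23 to 25 and 17 to 20 genes for HGF, 21 to 24 and 16 to 22 for IL-6, 25 to 26 and 19 to 24 for the combination, 16 to 22 and 17 to 22 for IL-6 against HGF, 11 to 18 and 9 to 18 for the combination against HGF, 18 to 22 and 11 to 19 for the combination against IL-6, 12 to 18 and 7 to 14 for the interaction, and 27 to 28 in culture. Hmgcs1 lost its HGF call over 8 to 32 h without any of 4 arrays (adjusted p up to 0.104), and Mvd its IL-6 call without either of 2 (up to 0.0607). The cause of these shifts was not tested. The number of arrays limits the precision of all values.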
